A study of Mus musculus with 11 samples.

Results

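Naive CD4 T cells from the spleens of bone marrow chimeras whose marrow could not make MHC class II were compared with naive CD4 T cells of unmanipulated wild-type mice. The comparison used the 3 arrays titled MW naive and the 3 titled WT naive, 6 of the 11 arrays of the series. It covered 20402 genes, which came from the 20404 rows of the deposited gene table with a single gene symbol and left out 1712 rows with several symbols and 5684 with none. WT naive cells were sorted as TCRβ+CD4+CD44lo CD62Lhi from female C57BL/6 mice at 8 weeks of age. MW naive cells were sorted with the same gate plus CD45.2 from females that had received CD45.2+ MHCII-/- marrow from female donors after lethal irradiation, 8 weeks after the transfer. The recipients were wild type, so class II was left to the cells of the host that survive irradiation, and the labels describe the sorted cells as selected by thymic class II alone. MW naive thus differed from WT naive in irradiation, marrow transfer and marrow genotype at once. No chimera with wild-type marrow in wild-type hosts was among the arrays, so these cannot be told apart in the differences below. The labels do not name the deleted class II gene. They also disagree on the recipients, which are CD45.1+ in the design text and CD45.2+ in the source field. With CD45.2+ recipients the gate would not have separated donor cells from host cells. Memory phenotype cells (IMP, CD44hi CD62Llo) of the same kind of wild-type mice (WT IMP, 2 arrays) and of the opposite chimeras, with CD45.1+ wild-type marrow in irradiated MHCII-/- hosts (WM IMP, 3 arrays), entered the fit as the other groups. The labels number the arrays of a group as biological replicates and do not tie them to single animals, so the p-values measure the spread between these arrays.

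CD4 T cells recognise peptides held by MHC class II. Epithelial cells of the thymic cortex select developing CD4 T cells on class II, and dendritic cells, B cells and macrophages, which derive from marrow, show it to naive T cells in the spleen. Contact with self peptide on class II gives resting naive cells a weak signal through the T cell receptor, known to sustain genes such as Cd5 and Nr4a1, while interleukin 7 sustains their survival.

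Values are log2 differences from WT naive, whose 3 arrays average 0 for each gene. The values hold no brightness, so the level of a gene and its distance from background are unknown, and no gene is compared with another in level. Differences are MW naive minus WT naive with the standard error of limma, for 3 against 3 arrays, and a gene was called at a Benjamini-Hochberg adjusted p under 0.05 over all 20402 genes. In all, 3.08% of genes were called (628), 1.28% as higher (262) and 1.79% as lower (366) in MW naive. Each of the 628 called genes had its 3 MW naive arrays wholly above or wholly below its 3 WT naive arrays. A lack of overlap named beside a called gene is therefore no separate support for its call.

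The genes of the class II molecule itself were checked first, since the marrow was chosen for lacking it. H2-Ab1 and H2-Aa encode the beta and alpha chains of I-A, and H2-Eb1 encodes the beta chain of I-E. The 3 genes neighbour each other on chromosome 17. H2-Ab1 stood at -3.82, -3.43 and -2.44 in the 3 MW naive arrays and at 0.63, -0.19 and -0.44 in the 3 WT naive arrays. All MW naive arrays lay below all WT naive arrays, and MW naive was 9.39-fold lower (-3.23 ± 0.34, adjusted p = 0.0021). H2-Aa stood at -4.64, -2.96 and -2.56 in MW naive and at 0.74, -0.31 and -0.42 in WT naive. Its groups did not overlap either, and it was 10.5-fold lower (-3.39 ± 0.46, adjusted p = 0.00441). H2-Eb1 was 8.95-fold lower (-3.16 ± 0.38, adjusted p = 0.00298), with MW naive at -4.04, -2.98 and -2.46. The 3 genes were lower by limma with any of the 6 naive arrays left out, at adjusted p of at most 0.0243. They were the called members of the 7 measured genes of class II presentation, all in the direction that 1.79% of all genes took. Cd74, the invariant chain that escorts class II through the cell, was not called at -0.69 ± 0.45 (adjusted p = 0.52), and its groups overlapped. H2-DMa, which helps load peptide onto class II, was not called at 0.58 ± 0.17 (adjusted p = 0.0929).

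Class II genes share a promoter module whose Y box is known to bind the factor NF-Y. The windows of the lower genes H2-Aa and H2-Eb1 are shown because both genes fell together. They are the 250 bases before the RefSeq start in GRCm38.p6, 5′ to 3′, with the Y box CTGATTGG in capitals, at chr17:34287824-34288073 on the minus strand for H2-Aa and at chr17:34305617-34305866 on the plus strand for H2-Eb1. H2-Ab1 has no entry in the promoter table.
H2-Aa: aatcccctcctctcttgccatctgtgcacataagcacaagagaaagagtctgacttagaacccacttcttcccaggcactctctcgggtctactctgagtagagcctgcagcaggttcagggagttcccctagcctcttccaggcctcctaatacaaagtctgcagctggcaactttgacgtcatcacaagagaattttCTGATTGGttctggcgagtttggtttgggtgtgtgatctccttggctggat
H2-Eb1: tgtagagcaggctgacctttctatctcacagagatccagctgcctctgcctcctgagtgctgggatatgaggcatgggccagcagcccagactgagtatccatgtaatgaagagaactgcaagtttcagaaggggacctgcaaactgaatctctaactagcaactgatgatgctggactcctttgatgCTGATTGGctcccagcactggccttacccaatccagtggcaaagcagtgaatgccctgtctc
The Y box begins 51 bases before the start of H2-Aa and 62 bases before that of H2-Eb1. Searched on both strands, it occurs in 3.83% of the 32851 windows of this length in the table. The window of H2-Oa, which encodes a chain of the class II modulator DO and was not called at 0.01 ± 0.19, holds it too, so the match describes the module and does not separate lower from other genes.

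Markers of cells that carry class II were measured beside these genes. None of the 16 B cell markers was called by limma, and their median difference was -0.24. An unadjusted p under 0.05 was found for 1 of them, beside 3377 of all 20402 genes. The mean over the 16 markers ran from -0.41 to 0.52 in the WT naive arrays and from -0.58 to 0.06 in MW naive, so the groups overlapped. Cd79a, a chain of the B cell receptor, differed by -1.57 (adjusted p = 0.61). None of the 10 dendritic cell markers was called by limma, and none had an unadjusted p under 0.05. The probe-set values gave no call in either list. Of the 22 markers of monocytes, macrophages and granulocytes, 2 were lower and 1 was higher (Cebpb, a transcription factor gene, 0.69 ± 0.15), beside 1.79% and 1.28% of all genes. The 2 probe sets of Cebpb pointed opposite ways, at 0.76 and -0.72, their mean was 0.02 (adjusted p = 0.976), and the gene was called in 1 of the 6 fits without a naive array. The mean over the markers ran from -0.20 to 0.33 in WT naive and from -0.63 to -0.27 in MW naive without overlap. The lower ones were the lysozyme gene Lyz2, at -1.87, -1.84 and -1.70 in MW naive (-1.80 ± 0.23, adjusted p = 0.00327), and the Fc receptor gene Fcgr3 (-1.34 ± 0.28, adjusted p = 0.0315). Lyz2 kept its call with any naive array left out, and Fcgr3 lost it with each of the 6 left out in turn (adjusted p up to 0.138). Fewer such cells in the sort and less RNA per cell cannot be told apart in these bulk samples, and their part in the other differences was not tested.

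The lineage and sorting genes described here did not pass the test. Cd3e, a chain of the T cell receptor complex, differed by -0.19 ± 0.12, Cd44 by -0.32 ± 0.18, and Ccr7, a homing receptor of naive cells, by -0.12 ± 0.23. Cd4 itself spread widely, at -1.88, -1.61 and -0.71 in MW naive and -0.21, 1.09 and -0.88 in WT naive. The groups overlapped, and the difference of -1.40 ± 0.46 had an adjusted p of 0.143.

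The RNA of the MW naive arrays differed from that of WT naive in the control probe sets placed along the Gapdh and beta-actin transcripts. Labelling starts at the 3′ end, so a 5′ probe set below its 3′ partner marks shorter labelled RNA. For Gapdh the 5′ minus 3′ value was -4.22, -3.50 and -1.38 in MW naive and 0.02, -0.42 and 0.41 in WT naive. For beta-actin it was -1.33, -0.84 and -0.82 in MW naive and -0.23, -0.12 and 0.35 in WT naive. Both controls separated the groups without overlap, by -3.03 and -0.998 (exact permutation test, two-sided, p = 0.1 for each, the smallest that 3 against 3 arrays allow). The lowest Gapdh value of the series was not in MW naive but in WT IMP replicate 1, at -4.23, against -0.27 in replicate 2 of the same group. The hybridization controls, added after labelling, were higher as well, at 1.01, 1.05 and 1.44 in MW naive against -0.10, 0.56 and -0.46 in WT naive. Controls for poly-A RNA were high in 1 array of each group.

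**Figure D1:**
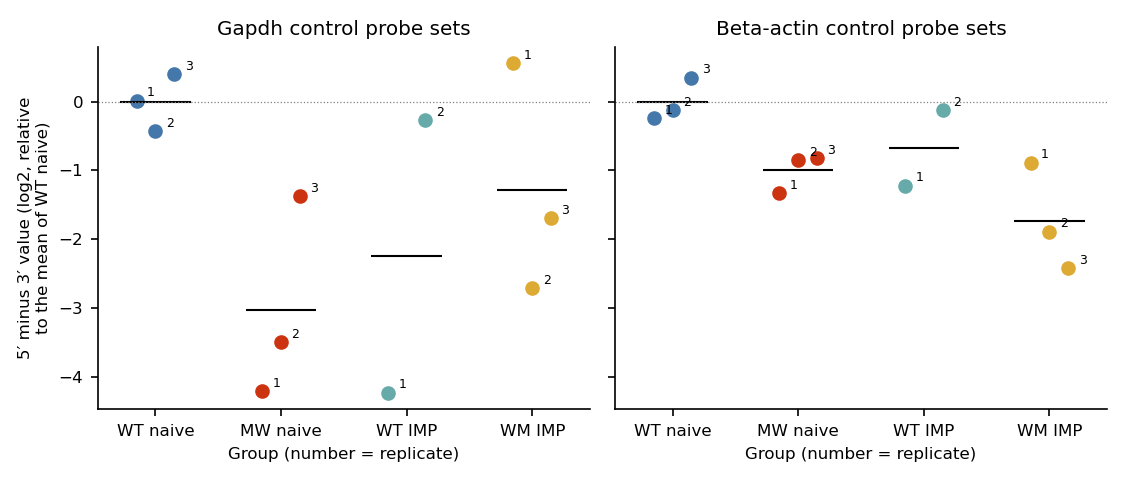
Control probe sets by array: the y axis is the 5′ minus the 3′ value of Gapdh (left) or beta-actin (right), log2 relative to the mean of WT naive, points are single arrays numbered by replicate, and bars are group means. The 3 MW naive arrays lie below the 3 WT naive arrays for both controls, and the 2 WT IMP arrays stand at -4.23 and -0.27 for Gapdh.

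These control values were then used as covariates. Both separate MW naive from WT naive, so a covariate can widen the standard error of the group difference. Calls can then be lost without a change in the difference, and the fall in their number was not a test of RNA integrity. Among genes described below, Egr2 stayed at -1.05 with the Gapdh covariate while its standard error went from 0.13 to 0.18. Pdia3 went from -2.69 to -1.44. With the Gapdh 5′ minus 3′ value of each array as a covariate, 37 genes were called (0.181% of genes), 19 higher (0.0931%) and 18 lower (0.0882%). All 628 genes kept the sign of their difference. Of the class II genes, H2-Ab1 was called there (-2.87, adjusted p = 0.0415), while H2-Eb1 (-2.94, adjusted p = 0.0627) and H2-Aa (-2.89, adjusted p = 0.102) were not. With the actin value as covariate 112 genes were called, and the 37 were among them. The 2 WT IMP arrays, which share a genotype and a gate and differ in RNA integrity, give a second view. They also differ in the mean of the poly-A controls, at 2.29 in replicate 1 and -1.38 in replicate 2. Integrity and these controls cannot be told apart in this pair. Replicate 1 was lower than replicate 2 by at least 0.5 in 109 of the 366 lower genes (29.8%), against 4 of the 262 higher genes (1.53%) and 4.2% of all genes. It was higher by at least 0.5 in 11 higher genes (4.2%), 5 lower genes (1.37%) and 2.88% of all genes. RNA integrity and group cannot be told apart within the naive arrays, so results with the Gapdh covariate are given for the lists and genes below.

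The count also depended on single arrays. Without WT naive replicate 1, 2 or 3 it was 142, 246 or 124, and without MW naive replicate 1 or 2 it was 160 or 138. Without MW naive replicate 3, whose Gapdh value was nearest to WT naive, it was 704, and without WM IMP replicate 1 it was 1181. With any of the 6 naive arrays left out, 102 genes were called each time, 53 higher and 49 lower, and 34 of these were called with the Gapdh covariate too. With the deposited probe-set values, averaged over the probe sets of each gene, 556 genes were called and 25.9% of them were higher, against 41.7% of the 628. Of the 628 genes, 627 kept their sign there and 366 their call.

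**Figure D2:**
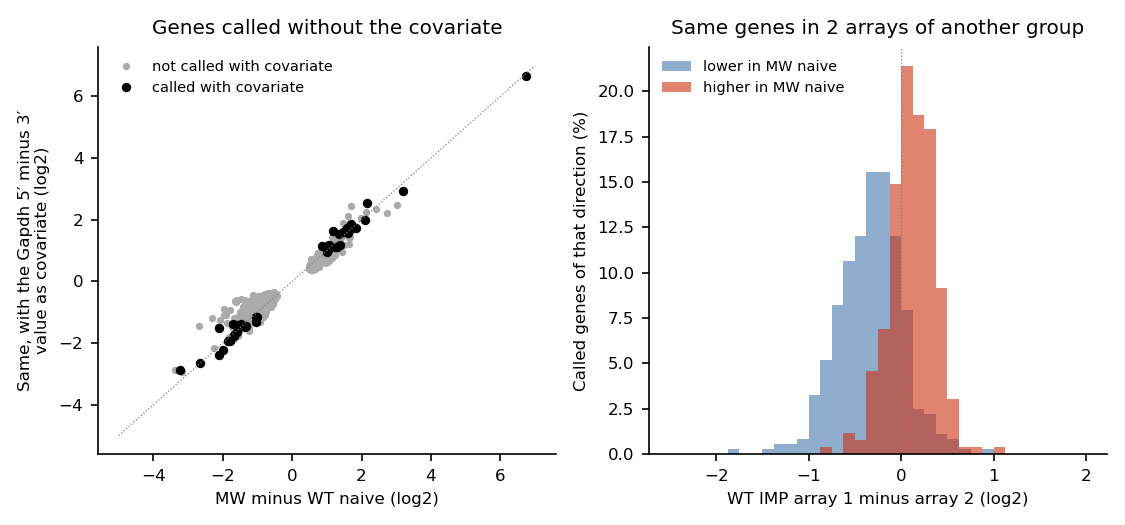
Left: for the 628 called genes, the MW minus WT naive difference (x axis, log2) against the same difference with the Gapdh 5′ minus 3′ value as covariate (y axis, log2), with the 37 genes still called in black and the dotted line marking equal values. Right: share of the lower and of the higher genes (y axis, percent of each direction) by the difference between the 2 WT IMP arrays (x axis, log2), with medians of -0.30 for lower and 0.12 for higher genes.

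Immediate early genes, which are switched on within minutes to hours of T cell receptor signals, were lower in MW naive in 8 of 30 cases and higher in none, beside 1.79% and 1.28% of all genes. Their median difference was -0.40, against 0.00 over all genes. Egr1, an early growth response factor downstream of the receptor, stood at -1.80, -1.56 and -1.40 in MW naive and at 0.01, -0.21 and 0.19 in WT naive. The groups did not overlap, and Egr1 was lower by limma (-1.59 ± 0.16, adjusted p = 0.00178). It was the immediate early gene that stayed called with the Gapdh covariate (-1.41, adjusted p = 0.0394). Its relative Egr2 stood at -1.01, -1.14 and -1.01 in MW naive and fell by 1.05 ± 0.13 on the log2 scale (adjusted p = 0.00307). With the covariate its difference was -1.05 without a call (adjusted p = 0.0627).

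Nr4a1, the orphan nuclear receptor Nur77 that serves as a reporter of receptor signals in mice, stood at -1.37, -1.48 and -0.98 in MW naive and 0.15, 0.11 and -0.26 in WT naive. The groups did not overlap, and it was 2.42-fold lower (-1.27 ± 0.18, adjusted p = 0.00449). With the Gapdh covariate its difference was -1.0 and no longer called (adjusted p = 0.0988). Jun, a subunit of AP-1, was 2.71-fold lower (-1.44 ± 0.18, adjusted p = 0.00327), and with the covariate its difference was -1.31 without a call (adjusted p = 0.0781). Egr1, Egr2, Nr4a1 and Jun were each called with any naive array left out. Btg2 (-1.42 ± 0.26), an antiproliferative gene, and Irf4 (-1.26 ± 0.27), a factor that follows the strength of receptor signals, were called too. Both lost their call with either MW naive replicate 1 or 2 or any WT naive array left out (adjusted p up to 0.0874 and 0.121), and the 2 probe sets of Irf4 disagreed, at -1.58 and 0.23, with a mean that was not called (-0.67, adjusted p = 0.164). The count of lower genes was 5 without MW naive replicate 1 or 2 or WT naive replicate 1 or 3, and it was 1 with the Gapdh covariate. Genes of the same list lay in the other direction without a call, among them the inhibitor Tnfaip3 (0.71) and the transcription factor gene Myc (0.62).

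The promoters of Nr4a1 and Egr2 are shown because their genes fell together and both are known to respond to factors bound at the cyclic AMP element and at the CArG box, the site of serum response factor. The windows are the 250 bases before the RefSeq start in GRCm38.p6, 5′ to 3′, at chr15:101266596-101266845 for Nr4a1 and chr10:67537619-67537868 for Egr2, both on the plus strand. Capitals mark the core TGACG of the cyclic AMP element, or its reverse complement, and in Egr2 also the CArG box. Egr2 has 5 overlapping or nearby windows, and the first that holds both motifs is printed.
Nr4a1: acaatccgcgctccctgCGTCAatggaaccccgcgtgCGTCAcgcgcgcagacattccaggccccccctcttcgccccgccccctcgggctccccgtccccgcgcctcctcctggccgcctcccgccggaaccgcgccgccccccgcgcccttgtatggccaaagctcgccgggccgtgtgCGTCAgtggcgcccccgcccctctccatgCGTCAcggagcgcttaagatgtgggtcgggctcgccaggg
Egr2: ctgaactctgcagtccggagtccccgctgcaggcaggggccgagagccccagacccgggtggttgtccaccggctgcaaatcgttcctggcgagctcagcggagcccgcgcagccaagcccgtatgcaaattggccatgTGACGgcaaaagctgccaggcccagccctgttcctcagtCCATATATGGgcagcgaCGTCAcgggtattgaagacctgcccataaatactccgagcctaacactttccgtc
The core was searched on both strands and occurs 4 times in the window of Nr4a1 and 2 times in that of Egr2, whose CArG box begins 72 bases before the start. TGACG occurs in 17.8% of all windows and the CArG box in 1.47%. Counted by gene, with a match in any of its windows, the shares are 19.8% and 1.62%, and the counts that follow are of this kind. Among the immediate early genes with a window, 3 of 7 lower genes and 11 of 16 genes without a call held the core, and 2 of 7 and 1 of 16 held the CArG box.

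Genes listed as held up by contact with self peptide and class II were lower in 4 of 13 cases and higher in none. Of all genes 1.79% were lower and 1.28% higher, and the median difference of the list was -0.63. The part of class II contact in these differences was not tested, since irradiation, transfer and marrow genotype changed together. Cd5, an inhibitor of receptor signals whose surface level follows self-recognition, stood at -1.28, -0.72 and -0.89 in MW naive and between -0.05 and 0.03 in WT naive. It was 1.95-fold lower without overlap (-0.96 ± 0.21, adjusted p = 0.038), and it was not called with the Gapdh covariate (-1.12, adjusted p = 0.205) or with any 1 naive array left out (adjusted p up to 0.142). Its relative Cd6 had a like difference that was not called (-0.95 ± 0.25, adjusted p = 0.0631). The costimulatory receptor gene Tnfrsf9 was lower as well (-0.97 ± 0.20, adjusted p = 0.0252), also the transcription factor gene Tox (-0.54 ± 0.13) and Eea1, an endosome tether (-0.84 ± 0.19, not called in the probe-set mean, adjusted p = 0.0816). Without MW naive replicate 1 or 2 or WT naive replicate 1 or 2 no member of this list was called, 1 was without WT naive replicate 3, 2 were without MW naive replicate 3, WM IMP replicate 3 or either WT IMP array, and 6 were without WM IMP replicate 1. With the Gapdh covariate none was called by limma, 6 had an unadjusted p under 0.05 and the median was -0.60. The share of all genes at that unadjusted level with the covariate is not given. Ly6c1 and Ly6c2, which were also put in the list, had no row with a single symbol.

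Of 22 genes of the receptor complex and its proximal signalling, 3 were lower and none higher, beside 1.79% and 1.28% of all genes. Among them were the phosphatase gene Ptpn6 (-1.02 ± 0.20, adjusted p = 0.0225) and the Ras activator gene Rasgrp1 (-0.75 ± 0.15, adjusted p = 0.0267, and 0.0964 in the probe-set mean). None of the 3 was called with the Gapdh covariate, without MW naive replicate 1 or 2 or without WT naive replicate 1, 2 or 3. Cd86, a costimulatory ligand also made by activated T cells, stood at -1.27, -1.68 and -1.60 in MW naive and at 0.19, -0.10 and -0.10 in WT naive. The groups were apart, and Cd86 was 2.86-fold lower (-1.52 ± 0.19, adjusted p = 0.00323) with every naive array left out in turn, and at the edge of the call with the covariate (adjusted p = 0.0529).

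**Figure D3:**
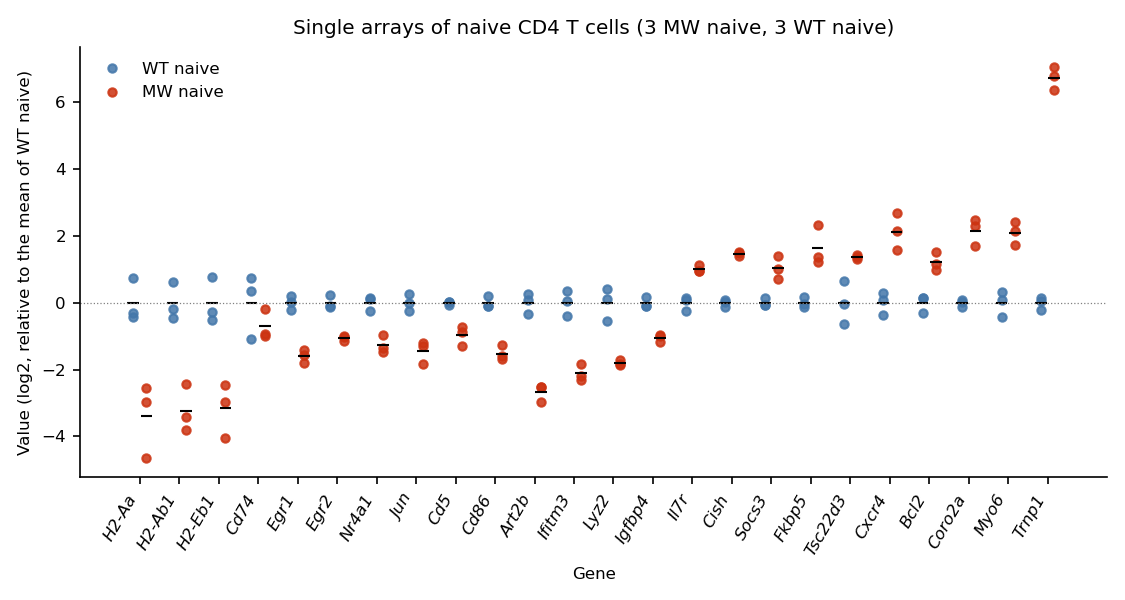
Values of 24 named genes (x axis) in single arrays (y axis, log2 relative to the mean of WT naive), with WT naive in blue, MW naive in red and bars for the means. Class II and immediate early genes lie below the WT naive arrays and Cish, Cxcr4, Il7r and Trnp1 above them, while the groups overlap for Cd74.

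Genes of cytokine signalling moved in both directions. Il7r, the alpha chain of the interleukin 7 receptor, stood at 1.15, 0.96 and 0.94 in MW naive and at 0.16, -0.25 and 0.09 in WT naive. The groups did not overlap, and Il7r was 2.02-fold higher (1.01 ± 0.15, adjusted p = 0.00791), with any naive array left out as well, but not with the Gapdh covariate (0.92, adjusted p = 0.145). Cish, an inhibitor induced by the transcription factor STAT5 downstream of several cytokines, stood at 1.52, 1.51 and 1.40 in MW naive and between -0.12 and 0.08 in WT naive. The groups did not overlap, and it was 2.78-fold higher (1.47 ± 0.17, adjusted p = 0.0023), also with the covariate (1.59, adjusted p = 0.0394). In the list of STAT and SOCS genes 2 of 16 were higher and 2 lower, beside 1.28% and 1.79% of all genes, with a median of -0.24. Socs3, another induced inhibitor of cytokine signals, was the other higher gene (1.04 ± 0.20, adjusted p = 0.0214), with 1 of its 3 probe sets at 0.09. Stat2 (-0.91 ± 0.19), a factor of interferon signals, and Socs6 (-1.10 ± 0.20) were lower. Of the 3 probe sets of Socs6, 2 were at -0.09, and the mean over all 3 was not called (-0.67, adjusted p = 0.0564). With the Gapdh covariate none of these 3 was called, with Socs3 at 1.19 (adjusted p = 0.145), Socs6 at -0.97 (adjusted p = 0.243) and Stat2 at -0.51 (adjusted p = 0.358). Of these 4 genes, Cish was called with every naive array left out in turn. Without MW naive replicate 1 or 2 or WT naive replicate 1 or 3 neither lower gene was called and Cish was the called higher gene, while without either WT IMP array or WM IMP replicate 1 the list had 4 lower genes.

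Of 19 genes of survival and death, 2 were higher and none lower, beside 1.28% and 1.79% of all genes. Bcl2, which protects cells from death, stood at 1.17, 1.53 and 0.97 in MW naive and at -0.31, 0.16 and 0.15 in WT naive (1.23 ± 0.26, adjusted p = 0.034). All 5 of its probe sets were higher in MW naive, by 0.74 to 1.61, and 3 of them were called. Bbc3, which encodes the killer protein PUMA, was higher too (1.06 ± 0.22, adjusted p = 0.0299). With the Gapdh covariate both differences were larger, at 1.54 and 1.195, and neither was called (adjusted p = 0.129 and 0.2). Bbc3 just missed the call in the probe-set mean (adjusted p = 0.0584). Neither gene was called without WT naive replicate 1 or 3 or MW naive replicate 1.

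Genes induced by glucocorticoids, the hormones that rise with stress and act on T cells through a nuclear receptor, were higher in 5 of 14 cases and lower in none, beside 1.28% of all genes higher. Their median difference was 0.70. Cxcr4, the chemokine receptor that holds cells in marrow, stood at 1.57, 2.14 and 2.70 in MW naive and at 0.29, -0.37 and 0.09 in WT naive. The groups were apart, and Cxcr4 was 4.39-fold higher (2.14 ± 0.32, adjusted p = 0.00805). Fkbp5, a co-chaperone of the glucocorticoid receptor, stood at 2.34, 1.23 and 1.38 in MW naive and between -0.13 and 0.17 in WT naive (1.65 ± 0.28, adjusted p = 0.0139). Tsc22d3, which encodes the glucocorticoid-induced leucine zipper, stood at 1.36, 1.42 and 1.33 in MW naive and at -0.02, -0.63 and 0.65 in WT naive (1.37 ± 0.26, adjusted p = 0.0214). WT naive spread more than MW naive for this gene, and no array overlapped. Il7r, above, and Pik3ip1, an inhibitor of PI3 kinase (0.89 ± 0.16), were the other higher members. With the Gapdh covariate the median was 0.62 and none of the 14 was called by limma, with 6 at an unadjusted p under 0.05. The share of all genes at that unadjusted level with the covariate is not given. Without MW naive replicate 1 or 2 or WT naive replicate 2 or 3 the count was 3, and without WT naive replicate 1 it was 2. Of the 3 probe sets each of Fkbp5 and Tsc22d3, 1 was called, and the mean over them was 0.73 for Fkbp5. The regulators Per1 (0.29 ± 0.23) and Zbtb16 (-0.23 ± 0.25), also known targets, were not called.

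Of 20 genes of naive identity 1 was higher and 2 were lower, beside 1.28% and 1.79% of all genes, with a median of -0.23 and 14 negative differences. The lower ones were Igfbp4, a growth factor binding protein of naive T cells (-1.04 ± 0.13, adjusted p = 0.00298), and Ampd1, an enzyme of purine turnover, at -1.55, -1.74 and -2.17 in MW naive (-1.82 ± 0.25, adjusted p = 0.00441). Both were called with any naive array left out, and Igfbp4 also with the Gapdh covariate (-1.14, adjusted p = 0.0415). Of its 6 probe sets, all were lower, by values from -2.10 to -0.36. Among innate-like T cell genes 3 of 20 were lower and none higher, beside 1.79% and 1.28% of all genes, with a median of -0.58. They were Nkg7 (-1.76 ± 0.31), a granule protein, Fcer1g (-1.43 ± 0.31), a signalling chain, and Tbx21, the factor T-bet of T helper 1 and NKT cells, which stood at -1.26, -1.47 and -0.999 in MW naive and at 0.73, -0.16 and -0.58 in WT naive. Tbx21 was not called in the probe-set mean (adjusted p = 0.0722). No member was called without MW naive replicate 1 or 2 or WT naive replicate 1 or with the Gapdh covariate, and 7 were without WM IMP replicate 1. None of the 17 regulatory T cell genes was called by limma, with 7 at an unadjusted p under 0.05 and 3 called from the probe-set values. Over all 20402 genes, 3377 were at that unadjusted level and 556 were called from the probe-set values. Foxp3, the defining factor of regulatory T cells, lay at -0.49, -0.61 and -1.02 in MW naive, below all WT naive arrays, and just missed the call (-0.71 ± 0.17, adjusted p = 0.0507).

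Genes of the interferon response had a median of -0.47 with 2 of 27 lower, beside 1.79% of all genes, Stat2 above and Oas1a, a sensor of viral RNA (-0.95 ± 0.22, adjusted p = 0.0418). Of 33 cell cycle genes 2 were lower, beside the same 1.79%. They were the topoisomerase gene Top2a (-0.84 ± 0.14, adjusted p = 0.0139) and Cdkn1b, which encodes the cycle inhibitor p27 (-0.97 ± 0.18, adjusted p = 0.0205). Of the 3 probe sets of Top2a, 2 were at -0.14 and 0.07, and the mean over all 3 was not called (-0.38, adjusted p = 0.188). Of 20 respiratory chain genes 2 were lower, Ndufs1 of complex I (-0.81 ± 0.19) and Atp5b of the ATP synthase (-0.75 ± 0.14), and the median of that list was 0.02. Oas1a, Top2a, Cdkn1b, Ndufs1 and Atp5b were not called with the Gapdh covariate, and each lost its call without WT naive replicate 1 or 3 or MW naive replicate 1 or 2. Limma called none of 6 NK cell, 5 CD8 T cell, 19 follicular helper, 12 glycolysis, 18 cholesterol synthesis or 11 ribosomal protein genes. Of these, 3, 1, 7, 5, 5 and 2 had an unadjusted p under 0.05, beside 3377 of all 20402 genes. From the probe-set values 1 NK cell gene was called among these lists, beside 556 of all 20402 genes. The mean over the NK cell markers ran from -0.23 to 0.30 in WT naive and from -0.73 to -0.59 in MW naive without overlap, and its part in the lower innate-like genes was not tested.

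**Figure D4:**
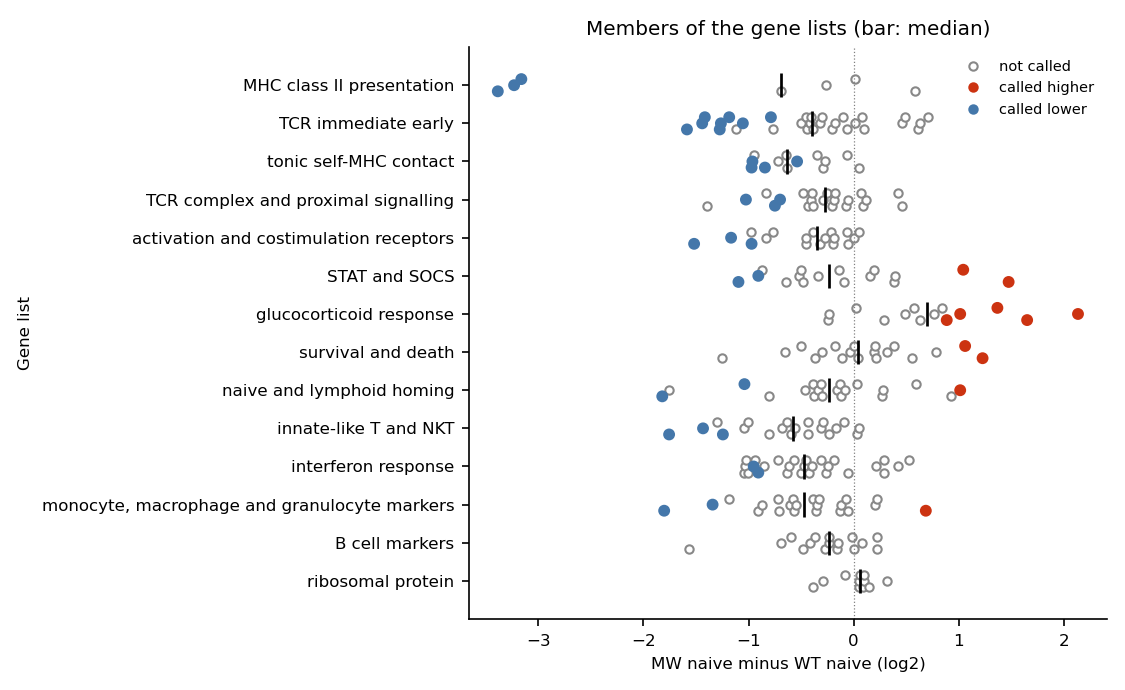
Difference between MW naive and WT naive (x axis, log2) of each measured member of 14 gene lists (rows), with called members filled, red for higher and blue for lower, and bars for medians. Called members of the immediate early and self-contact lists lie below 0 and those of the glucocorticoid list above 0, with the class II genes at the far left.

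Beyond the lists, the higher genes were led by Trnp1, which encodes a nuclear protein known from neural stem cells of mice. It stood at 7.07, 6.78 and 6.36 in MW naive and at 0.05, -0.21 and 0.16 in WT naive. No other gene moved as far, with a 107-fold difference (6.74 ± 0.19, adjusted p = 1.81e-08), or 6.66 with the Gapdh covariate (adjusted p = 2.48e-06). The rise came from 1 of its 2 probe sets, which differed by 7.48 ± 0.24 while the other differed by 0.23 ± 0.14. In the IMP arrays Trnp1 lay between -0.14 and 0.29 in both kinds of mice. Drc1, a subunit of the dynein regulator of cilia, stood at 3.68, 3.63 and 2.24 (3.18 ± 0.35, adjusted p = 0.0023). Coro2a, of the coronin family of actin binding proteins, was 4.45-fold higher (2.15 ± 0.26, adjusted p = 0.00296). Myo6, a myosin that moves toward the minus end of actin, was 4.30-fold higher (2.10 ± 0.22, adjusted p = 0.0019), with its 3 probe sets at 2.24, 1.54 and 0.61. Trnp1, Drc1, Coro2a and Myo6 were called with any naive array left out and with the Gapdh covariate.

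Other lower genes with a large difference had various roles. Art2b, an ADP-ribosyltransferase on the T cell surface, stood at -2.52, -2.97 and -2.52 in MW naive and at -0.34, 0.07 and 0.26 in WT naive (-2.67 ± 0.30, adjusted p = 0.0023). Ifitm3, which restricts virus entry, stood at -1.84, -2.18 and -2.32 (-2.12 ± 0.26, adjusted p = 0.00307). Both were called with any naive array left out and with the Gapdh covariate (adjusted p = 0.0492 and 0.0397). Pdia3 and P4hb, which form disulfide bonds in the endoplasmic reticulum, were lower too, as was the chaperone gene Hspa5. Of 17 heat shock and stress genes Hspa5 was the called 1, beside 1.79% of all genes lower, and the median of that list was -0.07. Pdia3, P4hb and Hspa5 were lower by 2.69 ± 0.48, 2.07 ± 0.40 and 1.43 ± 0.29 on the log2 scale, least in MW naive replicate 3 (-2.01, -1.08 and -0.74). The same genes were lower in WT IMP replicate 1 than in replicate 2, by -1.76, -0.79 and -0.54. None was called with the Gapdh covariate (adjusted p = 0.0804, 0.296 and 0.321) or without MW naive replicate 1 or 2 or WT naive replicate 1 or 3, nor was Hspa5 without WT naive replicate 2. The 2 probe sets of Pdia3 differed, at -3.01 and -0.44. Midn (-2.31), A530021J07Rik (-2.26) and Mlf2 (-2.14) had differences of like size, and none was called with the Gapdh covariate (adjusted p = 0.306, 0.146 and 0.455).

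Called genes lay on every autosome and on X, from 1.76% of genes on chromosome 18 to 5.04% on chromosome 19. On chromosome 17, which carries the class II genes, 34 of 828 genes were called (4.11%). Within 2 Mb of H2-Ab1 in RefSeq GRCm38.p6 it was 10 of 146 (6.85%), 3 higher and 7 lower, against 24 of 682 (3.52%) on the rest of the chromosome. The window was set around H2-Ab1, and its 10 called genes include H2-Ab1, H2-Aa and H2-Eb1, which raise its share. The other called genes of the window included the class I gene H2-T24 (-2.10 ± 0.26, adjusted p = 0.00298) and Ager, the receptor for glycated proteins (1.85 ± 0.18, adjusted p = 0.00178), both called with any naive array left out and with the Gapdh covariate. The share was not tested.

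The effect of the chimera in naive cells was then set against that in IMP cells (WM IMP minus WT IMP), which shares no array with it. Both effects came from the same fit of all 11 arrays and share its estimate of spread for each gene, so their calls are not independent. The chimeras were opposite ones, so cell type, marrow genotype and host genotype changed together and cannot be told apart. WM IMP also differed from WT IMP in Xist and Y-linked genes, described below. In IMP cells 1.8% of genes were called (368), 0.721% as higher and 1.08% as lower in WM IMP. Of these, 82 were called in naive cells too, 13.1% of the naive and 22.3% of the IMP calls, all in the same direction. The beta-actin 5′ minus 3′ value ran from -2.42 to -0.89 in WM IMP and stood at -1.22 and -0.12 in WT IMP, with overlap. The Gapdh value ran from -2.71 to 0.56 in WM IMP and stood at -4.23 and -0.27 in WT IMP, with the lowest value in WT IMP. The part of either control in the shared calls was not tested. The difference of both effects was called for 24 genes (0.118%), 9 with the higher effect in naive cells (0.0441%) and 15 with the lower (0.0735%). Ifitm3 fell in naive cells and was at 0.75 in IMP cells, so the effects differed by -2.86 ± 0.40 (adjusted p = 0.0252). H2-Ab1 and H2-Eb1 differed by -3.65 and -3.66, and their values in IMP cells lay above WT naive in both kinds of mice, for H2-Ab1 at 3.22 in both WT IMP arrays and 3.61, 3.43 and 3.87 in WM IMP. Without WT IMP replicate 1 or 2 the count was 8, without WT naive replicate 1, 2 or 3 it was 11, 12 or 13, without MW naive replicate 2 it was 15, and without WM IMP replicate 1 or 2 it was 41 or 96. With the Gapdh covariate it was 6.

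**Figure D5:**
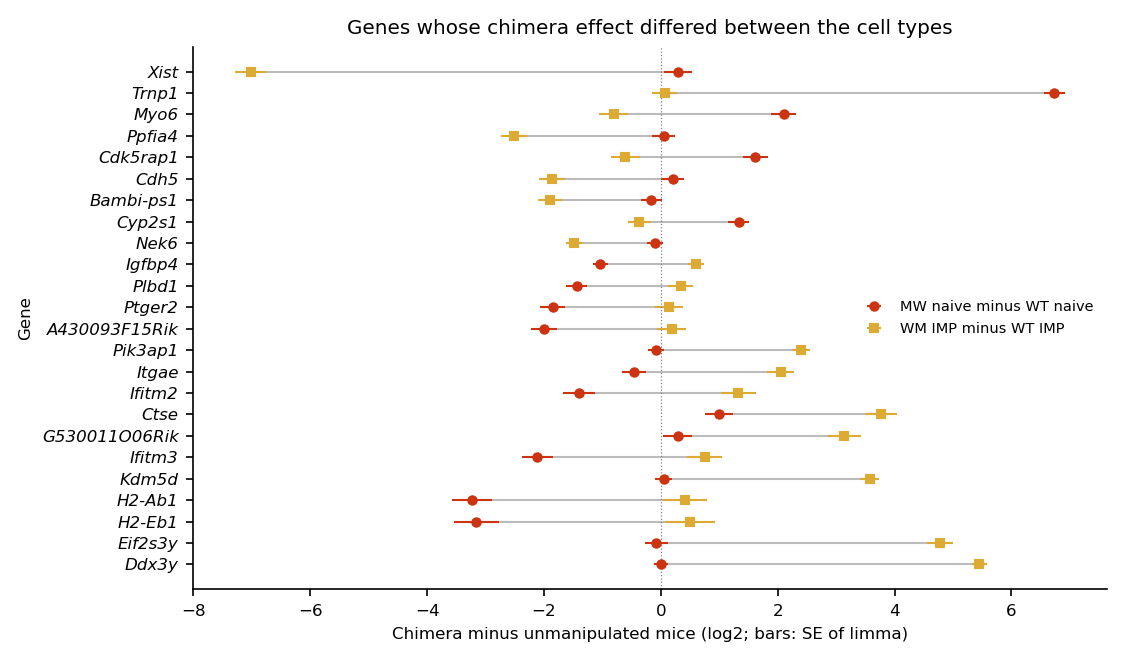
The 24 genes (rows) whose chimera effect differed between naive and IMP cells, measured in opposite chimeras. Circles give MW naive minus WT naive, squares WM IMP minus WT IMP (x axis, log2), and bars the standard error of limma. Trnp1 moved in naive cells alone, at 6.74 against 0.07, and Xist and the Y-linked genes Ddx3y, Eif2s3y and Kdm5d moved in IMP cells alone.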

How the data were processed

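The deposited values are log2 values of single-channel arrays, made by the authors with RMA per the submitters' processing notes and set relative to the mean of WT naive. No source gives the base of the logarithm, and base 2 follows RMA's usual output. The gene table is quantile normalized by its name and served as the main source. A second deposited table of 45101 probe sets (37514 of a single gene, 64 controls) served as a check. In 10939 genes that have 1 probe set, the 2 tables correlated at 0.954 or more for the same array and at 0.883 or less for different arrays. Only rows with a single symbol were used, and 2 symbols with 2 rows each were averaged. Of the 20402 genes, 17877 matched RefSeq (GRCm38.p6), which updated 2053 symbols. Arrays were not filtered on low values, since no brightness is given. Precision is limited by how few arrays each group has.

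The 4 groups of all 11 arrays were fitted with limma 3.58.1 in R 4.3.3 (lmFit, eBayes), with Benjamini-Hochberg adjustment over all genes of a contrast. The script was tested on simulated data. Tables were made with Python 3.11.15, pandas 2.3.3, numpy 2.4.6 and scipy 1.17.1, and plots with matplotlib 3.10.9. Replicate numbers did not pair the arrays, since the deviations of same-numbered naive arrays correlated at -0.01, -0.04 and -0.27. The genes and the 39 gene lists were chosen with earlier results of these data known. Named genes came from a rule: the 15 called genes with the greatest difference in each direction without overlap, up to 4 called members per list, the 15 greatest differences between the chimera effects, and a set of lineage genes. Tnfaip3, Myc, Cd79a, Pik3ip1, Per1, Zbtb16, H2-DMa and H2-Oa were named outside it, as members of lists chosen after their values were seen. Of the list symbols, 42 had no row of their own. Some genes that the rule or the lists hold are not reported here.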

Additional observations from a re-analysis of the deposited data

Results flagged for a closer look

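The results below were picked because the chimera effect in naive cells (MW naive minus WT naive) differed from that in IMP cells (WM IMP minus WT IMP) in limma's test of the difference itself. The chimeras were opposite ones, so cell type and genotype cannot be told apart in this difference. Each value is the naive effect minus the IMP effect on the log2 scale, for 3 against 3 and 3 against 2 arrays, and the genes are the 15 with the greatest size among the 24 called.

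Trnp1 differed by 6.67 ± 0.28 (adjusted p = 8.44e-07), with an effect of 6.74 in naive cells and 0.07 in IMP cells. Xist, the RNA that silences an X chromosome in female cells, differed by 7.31 ± 0.36 (adjusted p = 2.86e-06), and the Y-linked genes Ddx3y, Eif2s3y and Kdm5d by -5.45, -4.86 and -3.52. The whole difference lay in WM IMP, where Xist stood at -6.38, -7.44 and -6.95 and Ddx3y at 5.43, 5.48 and 5.62, although the labels describe female marrow and female hosts. In MW naive Xist lay between 0.04 and 0.60 and Ddx3y between -0.04 and 0.10, close to WT naive. Pik3ap1, an adaptor of PI3 kinase, differed by -2.47 ± 0.21 (adjusted p = 0.000426). These 6 genes were the ones called with the Gapdh 5′ minus 3′ covariate, and they were called with any of the 11 arrays left out. From the probe-set values Pik3ap1 was not called (-1.14, adjusted p = 0.0744), and the values of Trnp1, Eif2s3y and Kdm5d were smaller but called, at 3.67, -3.03 and -1.74.

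Of the genes that fell in naive cells, H2-Eb1 differed by -3.66, H2-Ab1 by -3.65, Ifitm3 by -2.86 and Ifitm2 by -2.72, with adjusted p of 0.0484, 0.0253, 0.0252 and 0.0391. Each lost its call with either WT IMP array, WT naive replicate 1 or 2 or MW naive replicate 2 left out, and H2-Eb1 reached an adjusted p of 0.265. From the probe-set values H2-Eb1 and Ifitm2 were not called (adjusted p = 0.0532 and 0.0744). Myo6 differed by 2.91 (adjusted p = 0.00603), with 2.10 in naive cells and -0.81 in IMP cells, and was not called without WT IMP replicate 2 (adjusted p = 0.0647) or from the probe-set values (1.93, adjusted p = 0.0568). The other genes moved mainly in IMP cells. G530011O06Rik differed by -2.85, Ctse, an aspartic protease, by -2.77, Itgae, the integrin chain CD103, by -2.51 and Ppfia4, a scaffold protein, by 2.56. All 4 lost their call without WT IMP replicate 1, and Itgae also from the probe-set values (-1.79, adjusted p = 0.189). Of the 11 fits with 1 array left out, G530011O06Rik was called in 5, Ctse in 8, Itgae in 9 and Ppfia4 in 10.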

How the results depend on the processing

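None of the 78 called genes among the 98 named by the rule changed sign under any alternative run, while 9 uncalled ones with small differences did under at least 1. The share of higher genes was 41.7% of the 628, 51.4% of those called with the Gapdh covariate, 25.9% from the probe-set values and 60% of the 5 without high poly-A arrays, and for the chimera effects it went from 37.5% to 59.4% without WM IMP replicate 2. The count of 628 genes was 341 with the replicate number as a block, although the numbers do not pair the arrays, 1129 when the 6 naive arrays were fitted alone, and 1275 of 37514 when each probe set was tested by itself. It was 2493 with array weights, 37 with the Gapdh and 112 with the actin 5′ minus 3′ value as covariate, and 5 once arrays with high poly-A controls were left out (2 against 2 naive arrays). With MW naive replicate 3 as the only array of its group, assumed to vary like the others, 2 genes were called. At an adjusted p under 0.01 it was 119, and 242 called genes differed at least 2-fold. Leaving out 1 array at a time gave 124 to 1181. The 24 genes with differing chimera effects were 14 with the replicate block, 12 from the probe-set values, 6 with the Gapdh covariate, 7 without WT IMP replicate 1 and MW naive replicates 1 and 2, and 8 to 96 with 1 array left out. Of 98 genes named by the rule, 61 lost their call with the Gapdh covariate, 52 with the actin covariate and 25 with the replicate block. Leaving out IMP arrays from the naive comparison, MW naive replicate 3 alone, the 3 arrays left out together and dropping genes whose WT IMP arrays differ by 0.5 or more (473 called) were chosen after seeing the data. Centring each array, the row of greatest variance per symbol, robust eBayes, the poly-A block and the hybridization covariate kept the count of 628 within 1.5 times. The values hold no signal over background, so how near a gene lies to it is unknown.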
